A study of Mus musculus with 2207 samples.

Results

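*Apol7b*, *Aspg*, *Krt7*, *Lama2* and *Allc* are genes from outside the immune system that stood higher in *Ehmt1*Δ/+ than in wild-type (WT) cortical neurons of both plate formats. They are 5 of the 52636 gene rows of the expression tables. They were chosen by the ratio of the mean value in *Ehmt1*Δ/+ neurons to that in WT neurons, so this ratio is described below with no test. Their distribution over neuron classes and glia, and their level in the pools with the active *Ehmt1* transgene, were not values used for that choice. The comparisons of classes below nevertheless include the pools used for it, so they are not independent of the choice.

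Single nuclei of C57BL/6 mouse cortex were sequenced by RamDA-seq, a full-length method that reads total RNA, and gave 1664 neurons and 397 oligodendrocytes by the deposited cell type labels, and 68 and 78 microglia in 96-well and 384-well plates. The nuclei came from 6 pools of 3 mice each, all aged 14 weeks and all given tamoxifen when 3 weeks old, in 2 doses of 100 mg/kg. In the 96-well plates 1 pool was wild type (Ehmt1+/+) and 1 was Ehmt1delta/+, written het from here on. In the 384-well plates the WT pool (Ehmt1+/+) and the het pool (Ehmt1delta/+) both carried Ehmt1 iTg, an inducible *Ehmt1* transgene, without CamKII-CreER, so that it was not switched on. The iTg pool (Ehmt1+/+) and the het_iTg pool (Ehmt1delta/+) carried Ehmt1 iTg together with CamKII-CreER, which is active in postnatal forebrain neurons, so glia of these pools are not the cells in which it acts. With 1 pool per genotype and plate format, and no nucleus tied to a mouse by the labels, the pool was the unit of replication and no genotype difference in neurons could be tested. The names of the nuclei of the 384-well WT pool also carried a code of their own, while the other 384-well pools shared another. What the code stands for is not known here, and it cannot be told apart from the genotype of that WT pool. *Ehmt1* RNA, read over the whole gene and not over the deleted part alone, was at 18.7, 19.5 and 20.7 RPKM (reads scaled by exon length and by the reads of the nucleus) in neurons of the 3 pools labelled Ehmt1+/+ and at 31.2, 31.7 and 33.9 RPKM in the 3 labelled het, so it does not check the deletion, and every genotype below is that of the label.

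*Ehmt1* encodes GLP, which with G9a methylates histone H3 at lysine 9, a mark of silent genes in euchromatin. In neurons this mark lies over many genes that belong to other tissues. The 5 genes have unrelated roles. *Apol7b* belongs to the apolipoprotein L family, whose mouse members lie in tandem copies. *Aspg* encodes an asparaginase, which splits asparagine into aspartate and ammonia, and *Allc* encodes allantoicase, an enzyme of the pathway that breaks down purines beyond uric acid. *Krt7* encodes a type II keratin of simple epithelia. *Lama2* encodes the alpha chain of the laminin of muscle, nerve and brain basement membranes, whose loss causes a muscular dystrophy with white matter changes.

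On mm10, *Apol7b* (ENSMUSG00000068252.5) lies on the minus strand of chromosome 15 from 77422209 to 77447492, and *Krt7* (ENSMUSG00000023039.16) on the plus strand of the same chromosome from 101411043 to 101430313. *Aspg* (ENSMUSG00000037686.6) lies on the plus strand of chromosome 12 from 112106679 to 112127559, and *Allc* (ENSMUSG00000020636.14) on its minus strand from 28553755 to 28582523. *Lama2* (ENSMUSG00000019899.16) spans 639723 bases of the minus strand of chromosome 10, from 26980036 to 27619758. The exons of *Apol7b* come to 2416 bases, those of *Aspg* to 3521, of *Krt7* to 7055, of *Lama2* to 16338 and of *Allc* to 1500.

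How far each value belongs to its gene alone differed among the 5. Of the 50-base words of the *Apol7b* transcripts, 72.4% also occur in other genes and 69.3% in *Apol7e*, a copy of the gene that starts on the other strand beyond a gap of 251365 bases. None of the words of *Aspg* or *Allc* occurs elsewhere, 0.916% of those of *Krt7* do, and 3.28% of those of *Lama2* lie in its antisense gene *Gm48084*. Reads of *Apol7b* and *Apol7e* can therefore not be fully told apart. The deposited values also hold parts of reads, as if reads with several matches had been divided, although the study's methods give default parameters for the counting. Of the values above 0, 20.2% were whole reads for *Apol7b*, 35.5% for *Krt7*, 86.9% for *Lama2* and 100% for *Aspg* and *Allc*, allowing a small deviation from a whole read. Less than 1 read was held by 30 of the 89 nuclei with *Apol7b* above 0 and by 150 nuclei with *Krt7*, most of these at 0.2 of a read. Shares of nuclei below are therefore given for 1 read or more, a limit set after these values were seen.

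The *Apol7b* and *Apol7e* starts are alike in sequence as well. The 250 bases before the start of *Apol7b* (GRCm38.p6, chr15:77447461-77447710, minus strand), of *Apol7e* (chr15:77698639-77698888, plus strand) and of the neighbour *Apol7a* (chr15:77399111-77399360, minus strand) are shown, all from RefSeq. The first 2 genes were higher in het than in WT neurons of both plate formats, and the third was lower. Capitals mark the longest run of bases shared with *Apol7b* or, in *Apol7b*, with *Apol7e*.
Apol7b: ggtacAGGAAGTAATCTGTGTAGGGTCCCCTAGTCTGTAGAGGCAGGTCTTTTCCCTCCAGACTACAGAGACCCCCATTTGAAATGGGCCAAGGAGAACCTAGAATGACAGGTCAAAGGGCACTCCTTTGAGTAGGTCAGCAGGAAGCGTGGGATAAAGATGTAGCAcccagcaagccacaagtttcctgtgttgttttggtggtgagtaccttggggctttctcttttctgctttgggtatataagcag
Apol7e: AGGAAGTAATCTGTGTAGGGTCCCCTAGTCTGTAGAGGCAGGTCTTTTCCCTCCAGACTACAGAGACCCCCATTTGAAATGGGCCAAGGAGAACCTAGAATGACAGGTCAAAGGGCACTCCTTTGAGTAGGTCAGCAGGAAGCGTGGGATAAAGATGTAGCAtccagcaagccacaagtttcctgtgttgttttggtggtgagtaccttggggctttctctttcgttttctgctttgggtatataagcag
Apol7a: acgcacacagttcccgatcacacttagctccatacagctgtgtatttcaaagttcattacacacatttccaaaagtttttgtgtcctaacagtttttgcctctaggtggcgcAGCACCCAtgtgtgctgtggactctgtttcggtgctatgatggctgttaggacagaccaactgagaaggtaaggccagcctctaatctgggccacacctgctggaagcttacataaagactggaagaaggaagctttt
The run shared by *Apol7b* and *Apol7e* made up 64.8% of the window, and 93.1% of their aligned bases were identical. *Apol7a* shared no run longer than 8 bases with *Apol7b*, and 28.7% of their aligned bases were identical. CG pairs numbered 1 in this window of *Apol7b*, 2 in that of *Aspg*, 16 in *Krt7*, 0 in *Lama2* and 6 in *Allc*, with a median of 6.0 over 32817 mouse promoters. The letters GGGCGG, searched on both strands, occurred 4 times before *Krt7* and 1 time before *Aspg*, and in 32.7% of all these promoters. The RefSeq starts of *Krt7* and *Lama2* differ from the coordinates given above. Their windows, chr15:101412153-101412402 and chr10:27616943-27617192, lie inside the gene spans stated there.

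In neurons, the mean *Apol7b* level was 0.0488 RPKM in the 96-well WT pool and 0.811 in the 96-well het pool, then 0.0154 in WT, 0.599 in het, 0.0445 in iTg and 0.203 in het_iTg of the 384-well plates. The 2 het pools stood far above the other 4, and het_iTg lay between them. Single nuclei weigh in these means too. Without the highest nucleus of each pool, the mean was 0.0149 RPKM in iTg, 0.124 in het_iTg and 0.517 in the 384-well het pool. At least 1 read was found in 2, 23, 2, 21, 3 and 7 neurons in the same order, of 518 neurons in the 96-well and 1146 in the 384-well pools. Few neurons thus carried the gene in any pool, and the share in the 96-well het pool was 8.68% (exact 95% interval 5.58% to 12.7%, counting error only) against 0.791% (0.0959% to 2.83%) in its WT pool.

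*Aspg* stood at 0.577, 4.76, 1.63, 4.76, 2.87 and 1.39 RPKM in the same order of pools. The het pools were again the highest, but iTg lay above het_iTg. Single nuclei weigh heavily in these means, since the highest nucleus of each pool gave between 26.8% and 53.6% of the pool's sum. The share of neurons with *Aspg* moved less, from 7.51% to 14.3% in 96-well plates and from 5.61% to 10.1% in the 384-well WT and het pools, with 8.36% in iTg and 10.4% in het_iTg.

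For *Allc*, the means were 0.992, 2.06, 0.686, 1.69, 0.908 and 0.951 RPKM. This is the gene whose level rests least on single nuclei, with 5.74% to 18.2% of a pool's sum in its highest nucleus. Between 11.2% and 14.2% of neurons held it in the 4 pools other than the het pools, and 25.3% and 19.9% in the 96-well and 384-well het pools.

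*Krt7* was low as well, at 0.0356, 0.324, 0.104, 0.372, 0.127 and 0.177 RPKM. Both het pools were above all others, with 27 (10.2%) and 26 (8.50%) neurons at 1 read or more, against 5 (1.98%) and 11 (3.86%) in the WT pools. *Lama2* was at 0.379, 0.889, 0.314, 0.826, 0.230 and 0.345 RPKM. Its mean differed more than its share of neurons, which was 19.4% and 22.3% in the 96-well WT and het pools and 16.5% and 19.6% in the 384-well ones, with intervals that overlap widely.

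**Figure D1:**
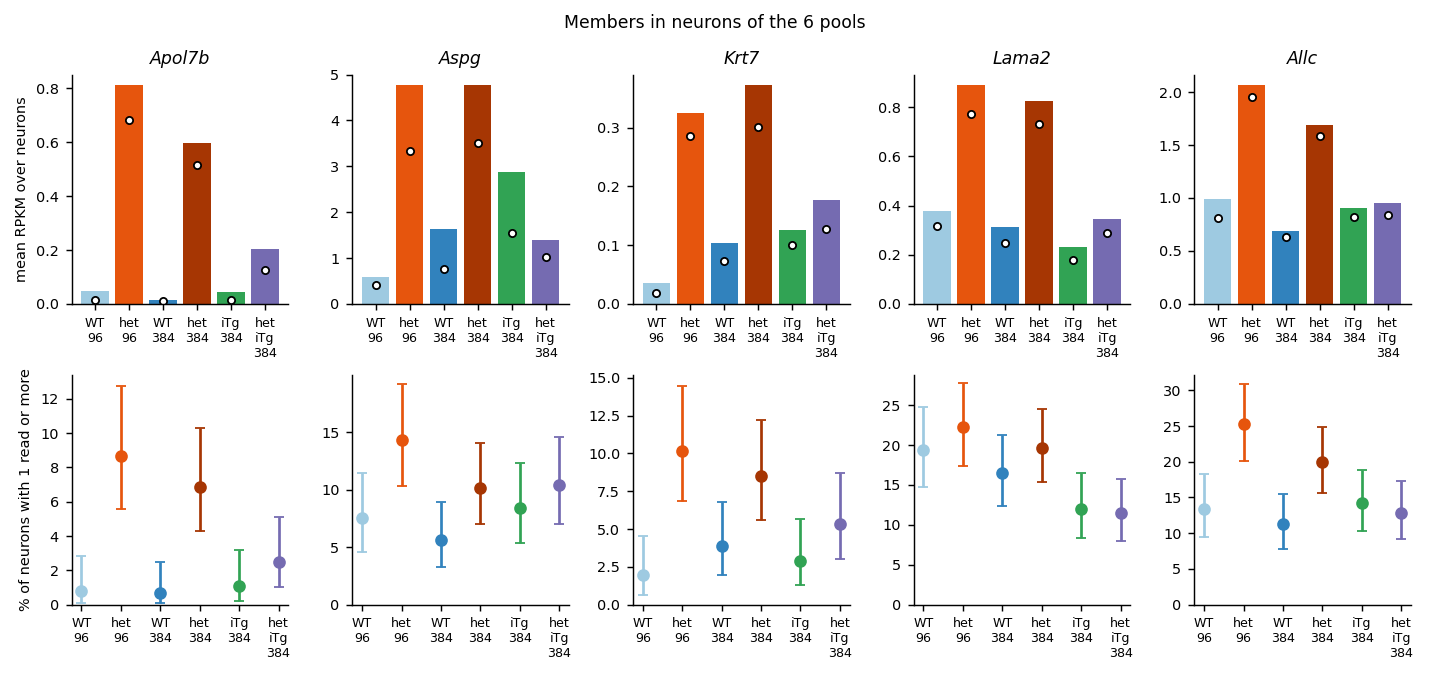
The upper row shows the mean RPKM over neurons in each of the 6 pools as bars, with an open circle for the mean without the highest nucleus, and the lower row the percentage of neurons with 1 read or more and its exact 95% interval. The bars of both het pools are the highest for each gene, and the circle of *Aspg* falls the furthest below its bar.

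On the log2(mean RPKM + 0.1) scale, het was above WT by 2.61 (96-well) and 2.60 (384-well) for *Apol7b*, by 2.85 and 1.495 for *Aspg*, by 1.65 and 1.21 for *Krt7*, by 1.05 and 1.16 for *Lama2*, and by 0.99 and 1.18 for *Allc*. Of the 31598 genes above 0 in at least 2% of neurons, all 5 among them, 74 were above WT by more than 1 in both formats (0.234%). *Apol7b* ranked 3 among these 31598 by the smaller of its 2 differences, *Aspg* 21, *Krt7* 36, *Lama2* 61 and *Allc* 80, so 4 of the 5 lay inside that limit and *Allc* just outside it. The named genes next to *Allc* in this order were *Cfap73* at 0.99 above it and *Pla2g2a* at 0.98 below it. As these values chose the genes, nothing is read from them. The names of the 96-well nuclei carry 4 codes per genotype. The means of each gene did not overlap between the WT codes and the het codes. This was so, with het higher, for 4.21% of the 31598 genes. The shares of neurons above 0 did overlap for *Krt7* and *Lama2*. Their highest WT and lowest het code means were 0.142 and 0.200 RPKM for *Apol7b*, 1.19 and 2.59 for *Aspg*, 0.0816 and 0.206 for *Krt7*, 0.454 and 0.703 for *Lama2*, and 1.58 and 1.67 for *Allc*. These codes divide the same pool of nuclei and are no replicates of the genotype.

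Excitatory neurons were taken as those with more *Slc17a7*, the vesicular glutamate transporter, than *Gad1*, the enzyme that makes GABA, and inhibitory neurons as the reverse, which gave 1324 and 333 neurons and left 7 in neither class. Excitatory neurons made up 75.5% and 83.02% of neurons in the 96-well WT and het pools and 73.7% and 82.7% in the 384-well ones, and the part of this in the genotype values was not tested beyond the values within excitatory neurons. There, *Apol7b* was at 0.0617 and 0.977 RPKM in the 96-well WT and het pools, and *Allc* at 1.25 and 2.42.

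Of the 5 genes, 4 were carried mainly by excitatory neurons. *Aspg* was higher there than in inhibitory neurons by 4.25 ± 0.416 on the log2 scale (SE over 6 pools, adjusted p = 1.36e-04, limma), *Allc* by 3.28 ± 0.299 (adjusted p = 9.35e-05, limma), *Apol7b* by 1.45 ± 0.422 (adjusted p = 0.0285, limma) and *Krt7* by 1.36 ± 0.244 (adjusted p = 0.00321, limma). Each of these was higher in 6 of 6 pools. That is 4 of 5 genes, where 18.4% of all 31598 genes tested were called higher in excitatory neurons. This count is not independent of the choice, since the pools that chose the genes are among the 6. Excitatory neurons were also a larger share of the het pools, which can favour their genes in a ratio of whole-neuron means. The part of this in the count was not tested. For *Apol7b* the log2 difference was 3.43 and 2.45 in the 96-well and 384-well het pools. It was 0.57 and 0.23 in the WT pools, 0.64 in iTg and 1.39 in het_iTg. *Lama2* did not pass the test, with a difference of 0.84 ± 0.409 (adjusted p = 0.149, limma) and a higher excitatory mean in 4 of 6 pools.

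Counts of neurons, taken over all pools together, give the same order from the same nuclei. Of the 81 excitatory neurons with *Apol7b* above 0, 30 were in the 96-well and 30 in the 384-well het pool, the pools that chose the gene. At least 1 read of *Apol7b* was found in 58 excitatory and 0 inhibitory neurons, and part of a read in 6 inhibitory ones. The exact interval allows a read in up to 1.10% of inhibitory neurons at this depth, which is no limit on those that use the gene. *Aspg* was found in 11.4% of excitatory and 1.502% of inhibitory neurons, *Krt7* in 6.65% and 1.20%, *Allc* in 19.9% and 1.20%, and *Lama2* in 19.03% and 8.11%. The excitatory call of *Apol7b* was the least firm, with an adjusted p of 0.0770 by limma without the 384-well het pool, 0.0625 without the het_iTg pool and 0.0629 with no replicate block, in a range of 0.00816 to 0.0770 over its 13 alternatives, 7 of which lost it.

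Excitatory neurons were then split into 4 classes by layer markers, each class named after the markers it was scored on: 372 upper-layer-like neurons, 361 layer 4/5a-like neurons, and smaller layer 5-like and layer 6-like classes. Each class was compared with the mean of the other 3 in limma over the 6 pools. In the same order of classes, 9.08%, 11.7%, 9.07% and 10.8% of all genes were called higher, and 5.62%, 13.8% and 15.6% were called lower in the upper-layer-like, layer 4/5a-like and layer 6-like class, the 3 in which a member was. The members did not share a layer.

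By the mean of the 6 pools, *Apol7b* was highest in the layer 4/5a-like neurons, those with *Rorb*. Their *Apol7b* means were 0.182 and 2.82 RPKM in the 96-well WT and het pools, 0.0155 and 2.499 in the 384-well WT and het pools, 0.159 in iTg and 0.679 in het_iTg. Both het pools were over 2 RPKM and no other pool reached 1. In the 384-well WT pool the upper-layer-like class, at 0.0265 RPKM, and the layer 5-like class, at 0.0263, stood above it, with 1 nucleus above 0 in each of the 3 classes. Of the 58 excitatory neurons with 1 read or more, 40 were in this class, and only 1 was layer 6-like. The class was above the others by 2.01 ± 0.446 (adjusted p = 0.00220, limma). The layer 6-like class was below the other classes by 1.24 on the log2 scale, at -1.24 ± 0.446 (adjusted p = 0.0473, limma). Both comparisons draw on the het pools that chose the gene, and no alternative left out both of these pools. The layer 6-like call was lost in 7 of 10 alternatives, among them leaving out each of the pools 96-well het, 384-well het, iTg and het_iTg, with adjusted p from 0.0278 to 0.182 by limma and 0.162 with no replicate block.

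*Krt7* belonged to the layer 6-like neurons, whose means were 0.149, 1.43, 0.719, 1.89, 0.460 and 0.822 RPKM from the 96-well WT to the het_iTg pool. The het pools were the highest, and every pool had more *Krt7* in this class than in any other layer class. The class held 69 of the 88 excitatory neurons with 1 read or more and was above the others by 2.61 ± 0.268 (adjusted p = 3.88e-07, limma). *Krt7* was lower in the upper-layer-like class, at -1.15 ± 0.268 (adjusted p = 0.00535, limma), and in the layer 4/5a-like class, at -1.09 ± 0.268 (adjusted p = 0.00475, limma). The first of these reached an adjusted p of 0.0537 with a pseudocount of 1, the highest in a range from 0.00356.

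*Lama2* was highest in the layer 4/5a-like neurons as well, at 0.715, 1.93, 0.895, 2.06, 0.653 and 0.702 RPKM. The difference from the other classes was 1.94 ± 0.192 (adjusted p = 3.61e-07, limma). It was nearly missing from layer 6-like neurons, with 0 to 0.0868 RPKM over the pools and a difference of -2.23 ± 0.192 (adjusted p = 4.28e-08, limma). A smaller excess in the upper-layer-like class, 0.64 ± 0.192 (adjusted p = 0.0303, limma), was lost in 6 of 11 alternatives, among them leaving out either 96-well pool, the 384-well WT pool or het_iTg, with adjusted p from 0.00859 to 0.476 by limma and 0.467 with no replicate block.

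*Allc* was carried by upper-layer-like and layer 5-like neurons. In the layer 5-like class its means were 2.05, 4.82, 1.39, 3.04, 2.23 and 1.85 RPKM, and in the upper-layer-like class they ran from 1.44 to 3.04. The layer 5-like class was above the others by 1.47 ± 0.244 (adjusted p = 3.7e-04, limma) and the upper-layer-like class by 1.24 ± 0.244 (adjusted p = 0.00142, limma). The layer 4/5a-like class was lower, at -1.74 ± 0.244 (adjusted p = 2.3e-05, limma), and so was the layer 6-like class, at -0.97 ± 0.244 (adjusted p = 0.00563, limma). Within layer 6-like neurons *Allc* stood at 1.94 and 1.41 RPKM in the het pools and between 0.285 and 0.393 in the other 4, the contrast that chose the gene.

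*Aspg* was lower in the layer 4/5a-like class, by a log2 difference of -2.12 ± 0.580 (adjusted p = 0.0105, limma), with 3.05% of its neurons at 1 read or more against 14.2% of upper-layer-like, 11.4% of layer 5-like and 18.4% of layer 6-like ones. The call was lost with no replicate block (adjusted p = 0.0696, limma) and without the 384-well het pool (adjusted p = 0.0779, limma), the highest in a range from 0.00570. The 96-well het pool departed from this pattern, with 6.63 RPKM in its layer 4/5a-like neurons. In the upper-layer-like class the difference was 1.41 ± 0.580 (adjusted p = 0.124, limma) and in the layer 5-like class 1.41 ± 0.580 (adjusted p = 0.120, limma). Without het_iTg the former reached an adjusted p of 0.0451 by limma, the lowest in a range up to 0.437.

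**Figure D2:**
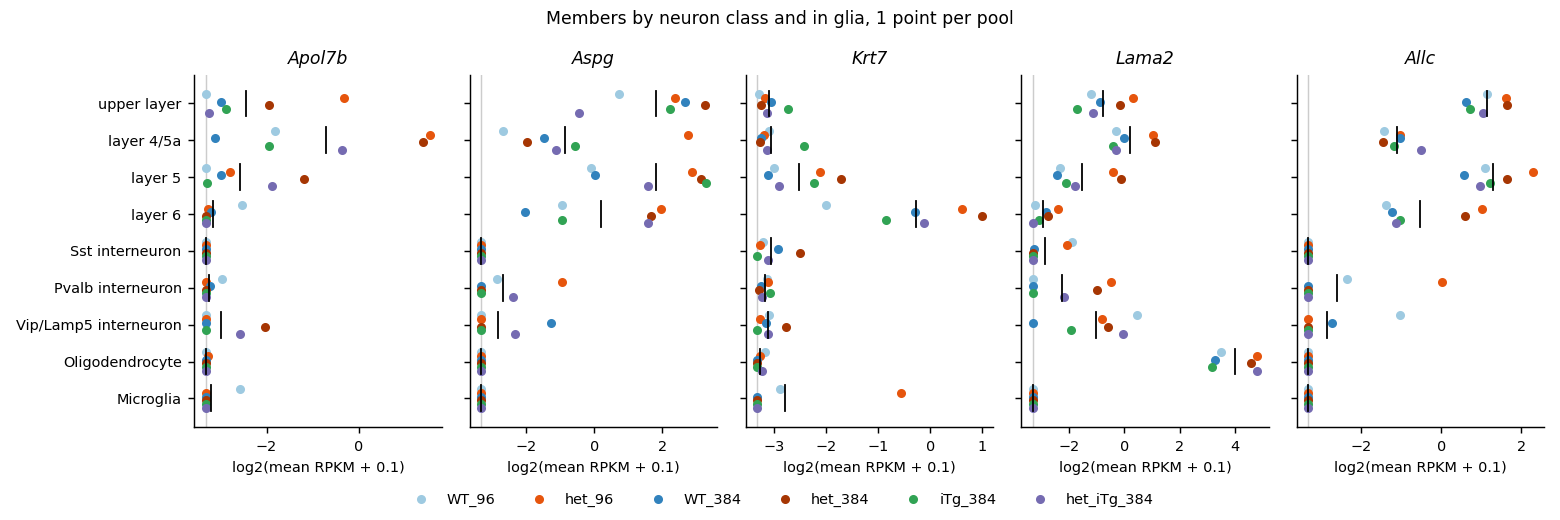
Each point is the log2(mean RPKM + 0.1) of a member in 1 class of 1 pool, with the mean of the 6 pools as a black bar and a value of 0 at the grey line. *Apol7b* and *Lama2* peak in the layer 4/5a-like class, *Krt7* in the layer 6-like class and *Allc* in the upper-layer-like and layer 5-like classes, while *Lama2* is far higher in oligodendrocytes.

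Inhibitory neurons held little of the members other than *Lama2*, whose mean there was above the excitatory one in the 96-well WT pool (0.600 and 0.307 RPKM) and in het_iTg (0.424 and 0.327 RPKM). Split by the markers of *Sst*, *Pvalb* and *Vip*/*Lamp5* interneurons, they gave 97 *Sst*-like, 110 *Pvalb*-like and otherwise *Vip*/*Lamp5*-like neurons, apart from 2 with no class. *Lama2* had 1 read or more in 5, 8 and 14 of these, and the other 4 genes in at most 3 of any class. The *Vip*/*Lamp5*-like class of the 96-well WT pool held 1.28 RPKM of *Lama2*, the highest inhibitory value, while that of the 384-well WT pool held 0.

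The members met in the same neuron only in part. At least 1 read of at least 1 of the 5 was found in 35.97% and 60.4% of neurons of the 96-well WT and het pools, 31.6% and 48.4% of the 384-well WT and het pools, 30.2% of iTg and 36.1% of het_iTg. At least 2 members were held by 49 (18.5%) and 48 (15.7%) neurons in the het pools and by 17 to 21 neurons (5.96% to 7.64%) in each of the other 4. The genes were chosen for higher values in the het pools, so higher shares there are partly fixed by the choice. Among excitatory neurons, *Apol7b* and *Lama2*, which share the layer 4/5a-like class, met in 19, where the product of their shares gives 11.04. *Aspg* and *Krt7* met in 21, where it gives 10.04. *Krt7* and *Lama2*, which lie in different layers, met in 1, where it gives 16.8, and *Apol7b* and *Krt7* never met. These counts take all pools together, so genes chosen as higher in het neurons can meet more often than the product gives. Of the 19 neurons with *Apol7b* and *Lama2*, 10 were in the 96-well and 8 in the 384-well het pool.

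**Figure D3:**
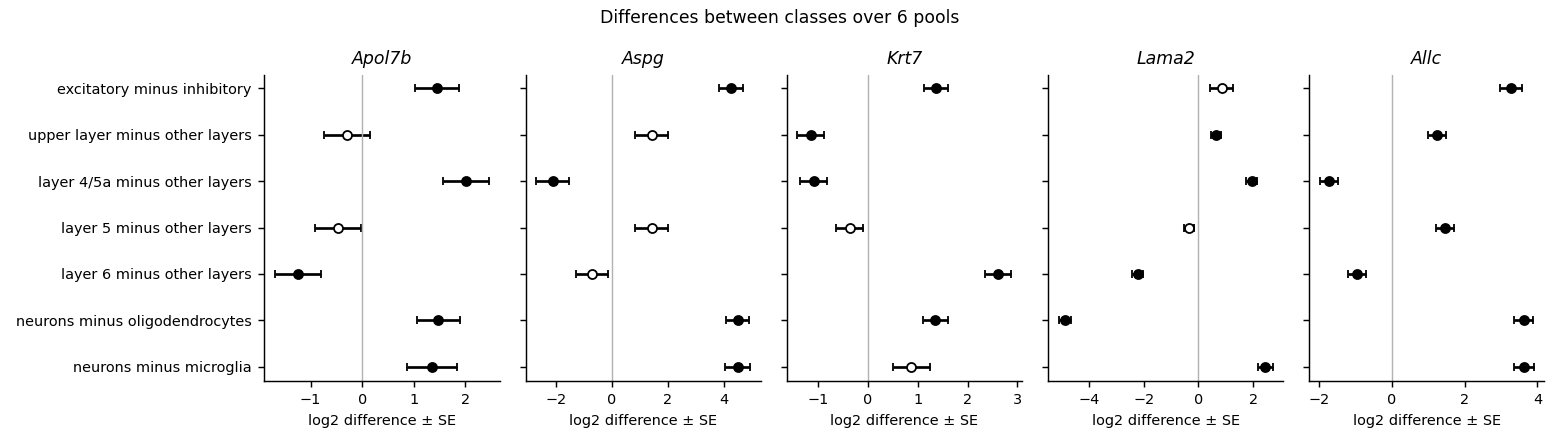
Log2 differences with SE over 6 pools are shown for each member between neuron classes and between neurons and glia, with filled points for adjusted p under 0.05 in limma. *Krt7* and *Apol7b* have opposite signs in the layer 4/5a-like and layer 6-like classes, and *Lama2* alone lies below 0 against oligodendrocytes.

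*Aspg*, *Allc* and *Apol7b* were called higher in neurons than in both kinds of glia, *Krt7* only against oligodendrocytes and *Lama2* only against microglia. *Aspg* and *Allc* were at 0 in all 397 oligodendrocytes and in the microglia of every pool. In 384-well plates the median depth was 52666 reads in oligodendrocytes and 42184 in microglia, against 358045 in neurons. A value of 0 in those glia is therefore weak evidence of absence. In 96-well plates the medians were 462938, 502838 and 349149 reads in the same order. In neurons minus oligodendrocytes, *Aspg* differed by 4.48 (adjusted p = 3.31e-05, limma), *Allc* by 3.62 (adjusted p = 7e-06, limma), *Apol7b* by 1.47 (adjusted p = 0.0150, limma) and *Krt7* by 1.35 (adjusted p = 0.00167, limma), so 4 of 5 were higher, as were 49.5% of 31529 genes. In neurons minus microglia, *Aspg* differed by 4.48 (adjusted p = 7.1e-05, limma), *Allc* by 3.62 (adjusted p = 1.65e-05, limma), *Lama2* by 2.45 (adjusted p = 9.75e-05, limma) and *Apol7b* by 1.36 (adjusted p = 0.0416, limma), and 45.7% of all genes were higher. The last call was lost in 7 of 11 alternatives, among them leaving out each het, iTg or het_iTg pool, with adjusted p from 0.0191 to 0.108. *Krt7* differed by 0.87 and did not pass (adjusted p = 0.0760, limma). The 96-well het microglia held 0.578 RPKM of it, more than the neurons of that pool. Without the highest nucleus of each pool, the ratio of 96-well het to WT microglia fell from 15.72 to 1.787. *Krt7* was at 0 in the microglia of all 384-well pools. Without the 96-well het pool the adjusted p by limma was 0.0162, the lowest in a range up to 0.239.

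*Lama2* was a gene of oligodendrocytes first. Its mean there was 11.2 and 27.99 RPKM in the 96-well WT and het pools, 9.48 and 23.6 in the 384-well WT and het pools, 8.85 in iTg and 27.9 in het_iTg. The 3 pools labelled het stood above the other 3 without overlap, as did 2.34% of the 15837 genes above 0 in at least 10% of oligodendrocytes. Neurons were below oligodendrocytes by 4.89 on the log2 scale, at -4.89 ± 0.231 (adjusted p = 1.04e-06, limma), where 15% of genes were called lower. At least 1 read was found in 72.8% of oligodendrocytes and in 0 microglia. The exact interval allows a read in up to 2.495% of microglia at this depth, which is no limit on those that use the gene.

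The het-labelled oligodendrocytes were compared with the others after these values were seen, in limma over the 3 pairs of pools that differ in the het label. The difference of *Lama2* was 1.42 ± 0.184 (3 pairs, adjusted p = 0.578, limma), at 1.32, 1.31 and 1.64 in the 96-well pair, the 384-well WT and het pair and the iTg and het_iTg pair. It ranked 9 among the 15837 genes by its unadjusted p and did not pass the adjusted threshold. No gene did (0%), with 697 genes at an unadjusted p under 0.05, and genes shifted by log2 of 1 or 2 in simulated data were not called at this size either. The share of oligodendrocytes with 1 read or more was 71.2% and 91.5% in the 96-well WT and het pools, 63.8% and 80.4% in the 384-well ones, 52.1% in iTg and 80.6% in het_iTg. Median depth was 462938 reads in 96-well and 52666 reads in 384-well oligodendrocytes, and the het-labelled pool was higher at both depths. The oligodendrocyte markers *Olig1*, *Mbp*, *Mog* and *Mag* did not divide the 3 het-labelled pools from the other 3 without overlap. *Mbp* was nevertheless higher in the het-labelled pool of each pair, at 809.8 and 852.1, 699.5 and 726.5, and 651.7 and 955.2 RPKM. *Olig1* was so in the 384-well pairs, at 39.05 and 44.9 and at 44.6 and 67.5 RPKM, and not in the 96-well pair, at 48.01 and 47.2. *Mog* and *Mag* were lower in the het-labelled pool of the 96-well pair and of the iTg and het_iTg pair. Both were higher in it in the 384-well WT and het pair, so the markers did not move together with the het label. The part of these marker differences in the *Lama2* values was not tested. The 5 markers of vascular leptomeningeal cells, which also use *Lama2*, summed to 0 to 0.139 RPKM in oligodendrocytes, with 3 of 5 at 0, and the 3 precursor markers to 0.452 to 1.64, with none at 0.

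Since oligodendrocytes hold so much *Lama2*, its level in neurons was set beside oligodendrocyte markers. Neurons held 2.83% of the oligodendrocyte level of *Lama2*, and 0.841% for *Mbp*, 0.539% for *Olig1*, 0.215% for *Mog* and 0.0229% for *Mag*. These 4 markers summed to 5.16 to 10.01 RPKM in neurons of the 6 pools, against 1701 to 2191 in oligodendrocytes, and none was at 0. In the 280 neurons with 1 read or more of *Lama2*, *Mbp* averaged 8.43 and *Snap25*, a neuronal synaptic gene, 99.8 RPKM, against 6.23 and 92.98 in the other 1384. *Mog* was at 0.941 and 0.577 RPKM in the same order, *Mag* at 0.344 and 0.167, and *Olig1* at 0.273 and 0.260. *Mag* was not higher in every pool, at 1.25 and 0.172 RPKM in the 96-well het pool and 0.0348 and 0.166 in the 384-well het pool. The part of oligodendrocyte RNA in the neuronal *Lama2* was not tested further.

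**Figure D4:**
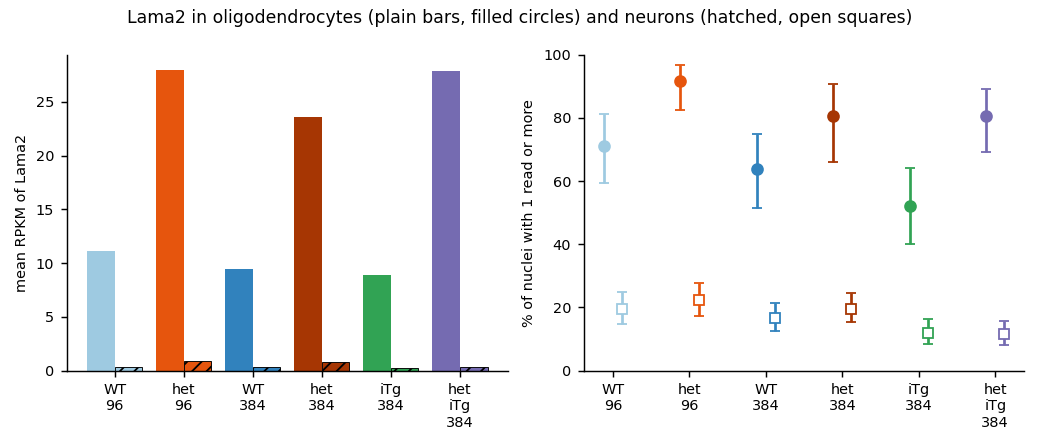
*Lama2* in oligodendrocytes and neurons of the 6 pools is shown as mean RPKM on the left and as the percentage of nuclei with 1 read or more, with its exact 95% interval, on the right. The het-labelled oligodendrocytes reach 23.6 to 27.99 RPKM and the others 8.85 to 11.2, while het_iTg neurons lie near the WT neurons.

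The transgene pools ask whether the members fall when *Ehmt1* is supplied to neurons of het mice. Whole-gene *Ehmt1* RNA was at 31.67 RPKM in 384-well het and 33.91 in het_iTg neurons. It was at 19.53 RPKM in 384-well WT and 20.69 in iTg neurons. These values do not check the supply, so the active transgene is that of the label. All 5 were lower in het_iTg than in het neurons of the same plate format, as were 37.5% of all 31598 genes and 82.4% of the 74 genes above WT by more than 1 in both formats. The het pool of this comparison was used to choose them, so a lower value in another pool is partly fixed by the choice. The log2 differences were -1.21 for *Apol7b*, -1.71 for *Aspg*, -0.77 for *Krt7*, -1.06 for *Lama2* and -0.76 for *Allc*. Their median was -1.06, beside 0.14 over all genes and -0.87 over the 74. Of the 74, 44.6% were lower by at least 1, as were 3 of the 5 members.

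The fall was not alike on every measure. By the share of neurons with 1 read or more, *Apol7b* went from 6.86% in het to 2.5% in het_iTg, *Krt7* from 8.50% to 5.36%, *Lama2* from 19.6% to 11.4% and *Allc* from 19.9% to 12.9%. *Aspg* stayed at 10.1% and 10.4%, while its mean was lower. Its layer classes differed, with 9.47 in het and 0.627 RPKM in het_iTg in the upper-layer-like class, 8.73 and 2.90 in the layer 5-like class, 3.05 and 2.87 in the layer 6-like class and 0.154 and 0.356 in the layer 4/5a-like class. Upper-layer-like neurons made up 34.4% of excitatory neurons in het and 21.3% in het_iTg, and the part of this in the *Aspg* mean was not tested. Without the highest nucleus of each pool, the layer 5-like ratio of het_iTg to het was 1.05. In the layer 4/5a-like class *Apol7b* was held by 14 of 59 neurons in het and 6 of 66 in het_iTg, and in the layer 6-like class *Krt7* was held by 20 of 53 and 11 of 55.

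Against iTg neurons, which share the transgene and were not used by the choice, 4 of 5 members were higher in het_iTg, where 66.5% of all genes and 70.3% of the 74 were. The log2 differences were 1.07 for *Apol7b*, 0.43 for *Lama2*, 0.29 for *Krt7*, 0.06 for *Allc* and -0.99 for *Aspg*, beside a median of 0.21 over all genes. The *Apol7b* means rest on few nuclei, at 0.203 RPKM in het_iTg and 0.0445 in iTg. They were 0.124 and 0.0149 without the highest nucleus of each pool. By the share with 1 read or more, *Apol7b* had 2.5% and 1.09%, with overlapping intervals of 1.01% to 5.08% and 0.226% to 3.16%, and *Lama2* and *Allc* were lower in het_iTg. With 1 pool in each group these are values without a test.

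**Figure D5:**
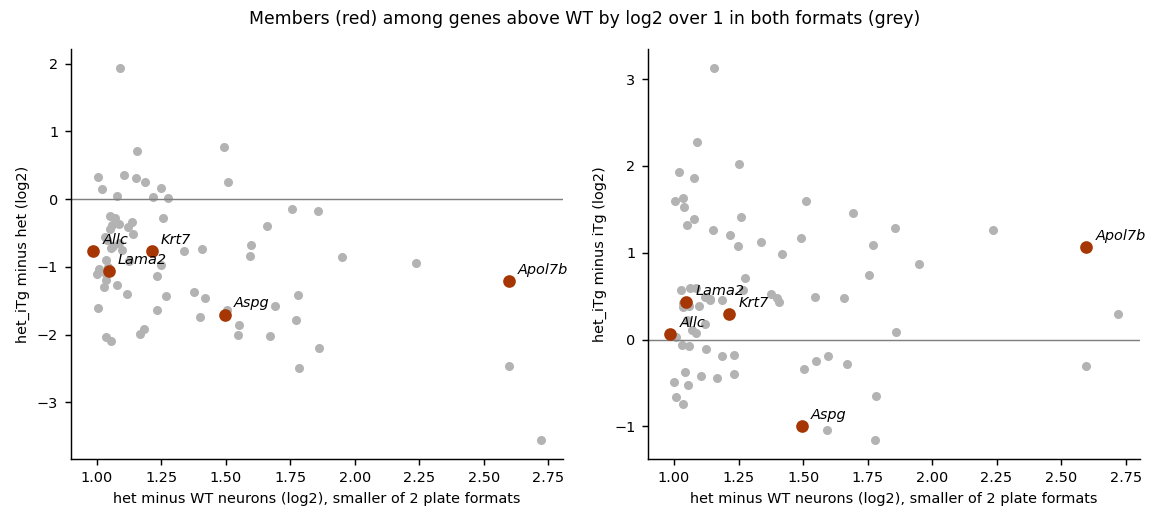
Log2 differences of het_iTg neurons from het neurons (left) and from iTg neurons (right) are plotted against the smaller het minus WT difference of the 2 plate formats, for the members in red and the 74 genes above 1 in grey. The 5 members lie below 0 on the left, and 4 of them lie above 0 on the right.

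The families of the members were examined next, from lists of related genes that do not hold every member of each family. Over all 31598 genes, 24.1% were above WT in both formats and 33.2% below. Of 13 apolipoprotein L genes, 4 others passed the filter, 2 of them were above WT in both formats and 1 by more than 1. That gene is *Apol7e*, at 0.0207, 0.559, 0.00740, 0.289, 0.0416 and 0.244 RPKM, highest in the 2 het pools like *Apol7b*, but with het_iTg close to the 384-well het pool. Reads of *Apol7e* and *Apol7b* cannot be fully told apart, as said above. *Apol7a* was lower in het in both formats, with 0.268 RPKM in WT and 0.136 in het (96-well) and 0.443 in WT and 0.293 in het (384-well). Of 6 other genes of asparagine metabolism, 0 were above WT in both formats and 4 were below. *Asns*, which makes the asparagine that *Aspg* splits, was at 18.1 and 14.5 RPKM in the 96-well WT and het pools. Of 7 other simple and basal keratins, *Krt20* and *Krt80* passed the filter, and both were above WT in both formats, *Krt20* by 0.30 and 0.21 and *Krt80* by 2.33 and 0.72 on the log2 scale. Of 19 other laminins, basement membrane genes and receptors, 4 were above and 7 below WT in both formats, with none beyond 1, and of 4 other genes of purine breakdown, *Urah* alone was above.

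The families differed between neuron classes as well. In excitatory minus inhibitory neurons, 2 of 4 apolipoprotein L genes, 2 of 2 keratins and 3 of 4 purine genes were called higher and none lower, while 4 of 6 asparagine genes were called lower and none higher. *Krt80* differed by 5.33 ± 0.314 (adjusted p = 1.03e-05, limma) and, like *Krt7*, was higher in the layer 6-like class, by 6.01 ± 0.464 (adjusted p = 1.05e-08, limma). Of the 19 laminin genes, 4 were called higher and 9 lower, among them *Lama3* at -4.47 ± 0.265 (adjusted p = 1.07e-05, limma). Over all genes, 18.4% were called higher and 18.1% lower.

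Within 250 kb, 5 genes passed the filter beside *Apol7b*, 7 beside *Aspg*, 8 beside *Krt7*, 6 beside *Lama2* and 10 beside *Allc*, and 11 of these 36 were above WT in both formats, 4 of them beside *Apol7b*, and 1 by more than 1. It is *4930571N24Rik*, a noncoding gene that overlaps *Apol7b* without sharing exon bases, at 0.0679, 0.442, 0, 0.812, 0.0105 and 0.205 RPKM. *Krt80*, 40881 bases from *Krt7*, was at 1.01, 5.48, 2.91, 4.86, 2.47 and 4.61 RPKM, so that het_iTg stayed near het. *4930579H20Rik*, which overlaps *Lama2*, was above WT by 1.51 (96-well) and 0.80 (384-well) on the log2 scale. *Dcdc2c*, 1356 bases from *Allc*, was at 0.456, 0.716, 0.458, 1.05, 0.445 and 0.377 RPKM, highest in the het pools. *Gm48084*, antisense to *Lama2* and overlapping its exons, was at 0.0592, 0.172, 0.0248, 0.165, 0.0370 and 0.0223 RPKM. The study's methods give default parameters for the counting and name no strand setting, so reads of *Gm48084* and *Lama2* cannot be told apart there.

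The genes most like each member were found over 12 points, the excitatory and inhibitory means of the 6 pools, among 15597 genes with a name of their own. For *Apol7b* they were *Apol7e* (Pearson's r of 0.971), whose reads cannot be fully told apart from its own, *Fendrr* (0.954) and *Espnl* (0.945). For *Aspg* they were the complement proteases *C1rb* (0.979) and *C1ra* (0.975) and the cytokine subunit *Il12a* (0.972). For *Krt7* they were the receptor kinase *Tie1* (0.977), *Myh1* (0.955) and *Wnt6* (0.953). For *Allc* they were *Dcdc2c* (0.986), *Dnajc21* (0.981) and the potassium channel *Kcnj6* (0.979). For *Lama2* the likeness was weaker, with *Ammecr1l* (0.862), *Stat4* (0.852) and *Tiam2* (0.822). The points share pools, depth and the split between excitatory and inhibitory neurons, and the values are a description. *Tie1*, like *Krt7*, was in excitatory neurons highest in the het pools, at 0.206 and 0.278 RPKM, against 0.0298 and 0.0697 in the WT pools, 0.0922 in iTg and 0.179 in het_iTg.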

How the data were processed

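Single nuclei were isolated from the cortex of 3 mice per pool, sorted into 96-well or 384-well plates and read by RamDA-seq. Per the labels' processing notes and the study's methods, the authors mapped reads to mm10 with HISAT2 2.0.4, counted them per gene with featureCounts of Subread 1.5.0 and set cell types on UMAP clusters. The files deposited hold RPKM of 52636 genes, in separate tables for 96-well and 384-well plates. The exon lengths and the read totals of the nuclei were recovered here from the steps in these values, with a median of 323272 to 397880 reads per neuron over the pools. No column was left without a sample. Pool and cell type came from the labels, which tie no nucleus to a mouse.

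Each class of a pool was given its mean RPKM, and log2(mean + 0.1) was fitted by limma 3.58.1 (R 4.3.3, trend, pool as a block, since the same mice gave both classes) over genes above 0 in at least 2% of nuclei, with Benjamini-Hochberg adjustment at 0.05. The pseudocount understates differences of low genes. Deviations of the classes of a pool from the class means correlated at 0.255 to 0.800 for excitatory and inhibitory neurons and at 0.0997 to 0.617 for neurons and glia. P-values over pools measure the spread between pools that also differ in genotype. In simulated data with 100 genes shifted by log2 of 1 and 100 by 2, limma recovered 69% and 92% between excitatory and inhibitory neurons (31598 genes), 81% and 98% between layer classes (31598 genes), 39% and 71% against oligodendrocytes (31529 genes) and 10% and 34% against microglia (31529 genes). The shifted genes were drawn from those with an average log2(mean RPKM + 0.1) above 0. These shares therefore do not cover lower genes such as *Apol7b* and *Krt7*. A neuron took the layer or interneuron class with the highest mean z-score of its markers. Intervals of shares are exact (Clopper-Pearson, 95%) and cover counting error alone. Doublets were not called.

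Named genes were the 5 members, their family lists, genes within 250 kb and, for each member, the 3 most alike. *Pnp* of the purine list matched no row. Some genes of the lists are not reported here. The members and all lists were chosen with earlier results of these data known. The comparison of oligodendrocytes by the het label and the limit of 1 read were added after values were seen. Alternatives were other pseudocounts (1 and 0.01), filters (10% and none), no block, no trend, stricter class calls and leaving out each pool. Coordinates are from the GENCODE annotation of the same build, and promoters from RefSeq (GRCm38.p6). All else ran in Python 3.11.15 with SciPy 1.17.1, pandas 2.3.3 and numpy 2.4.6.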

Additional observations from a re-analysis of the deposited data

Results flagged for a closer look

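In 4 of the 5 genes, neurons of the pool with the active transgene stood above their partner on the WT background and below it on the het background. The log2 difference of iTg from the 384-well WT pool was 0.3243 for *Apol7b*, 0.7816 for *Aspg*, 0.1551 for *Krt7* and 0.3585 for *Allc*. The log2 difference of het_iTg from the 384-well het pool was -1.207, -1.705, -0.7694 and -0.764 in the same order. Each background has 1 pool with and 1 without the active transgene, so the difference between backgrounds was not tested, and the 384-well WT and het pools were both used to choose the genes, by a high het and a low WT value, which pushes the values toward this pattern. *Lama2* was lower with the transgene on both backgrounds.

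Among 15 sets of name codes or pools of these genes examined for a value apart from the rest, none was found.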

How the results depend on the processing

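Over 396 alternatives run for 35 comparisons of a member between classes, 0 reversed direction, and 20 of the 26 calls held in every alternative, all calls against oligodendrocytes among them. The calls that were lost, and the 2 gained, stand beside their results above. Of all genes, 11528 were called between excitatory and inhibitory neurons, 20347 against oligodendrocytes, 19169 against microglia and 13238 between layer classes.

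The pool was kept as a block because the same mice gave the classes compared. With no replicate block the counts were 5694 between excitatory and inhibitory neurons and 6154 between layer classes, and the block changed no member call beyond those of *Apol7b*, *Aspg* and *Lama2* given above. With only neurons that had one of *Slc17a7* and *Gad1* above 0, 7333 genes were called. Leaving out each pool in turn gave 9845 to 10448, 19201 to 19615, 17661 to 18388 and 11359 to 12206 genes in the 4 comparisons. In oligodendrocytes by the het label, 0 genes were called, 1 with a pseudocount of 1 and 0 without each pair. The cause of these shifts was not tested.

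All 5 members were lower in het_iTg than in het neurons by every measure but the share with 1 read or more, which gave 4. Of the 4 higher in het_iTg than in iTg by the mean, *Lama2* and *Allc* were lower by that share and *Aspg*, lower by the mean, was higher. The part of depth in the shares of nuclei with the low genes *Apol7b* and *Krt7* was not tested beyond thinning.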
